A study of Mus musculus with 8 samples.

Results

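The open chromatin of control alveolar macrophages (AMs), the resident macrophages of the lung airspaces, was described from ATAC-seq peak lists of 4 WT libraries. ATAC-seq uses the Tn5 transposase to cut and tag accessible DNA, so a peak marks a stretch of the genome that was open to the enzyme. The WT animals were adult mice with the genotype CD11cCre- Rxrab fl/fl: they carried no Cre, and both Rxr genes were flanked by loxP sites but intact. The CD11c promoter drives Cre in the 4 KO libraries of the same study, which were not analysed here beyond counting regions. AMs came from bronchoalveolar lavage of lung and, according to the study, were sorted as mature AMs, and the libraries are WT1_2, WT1_3, WT3 and WT4. The labels do not say whether WT1_2 and WT1_3 share an animal, and the p-values below therefore measure only the spread between these libraries, which may be technical.

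Peaks of the 4 WT lists that shared at least 1 bp were merged, and an autosomal region was kept if every WT list had a peak in it. This left 52115 regions of 76328 merged autosomal WT regions (68.3%), and the merged lists of all WT and KO libraries held 80340 autosomal regions. The lists held 65028 peaks in WT1_2, 72484 in WT1_3, 66174 in WT3 and 61240 in WT4, and 84.8%, 74.5%, 82.8% and 90.0% of the autosomal peaks of these libraries lay in the 52115 regions. WT1_3 had the longest list and the lowest share. Strength was measured within a list, as the percentile of the peak's −log10 q-value (100 is the strongest peak of the list), and then averaged over the 4 libraries. The percentile was used because −log10 q grows with sequencing depth, and the peak lists do not give read depth.

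Enhancers and promoters become accessible where transcription factors displace nucleosomes. In macrophages PU.1 (encoded by Spi1), C/EBP, RUNX and AP-1 factors are known to open much of the enhancer repertoire, and in AMs the nuclear receptor PPARγ, induced by GM-CSF and TGFβ, is known to direct a lipid-handling program that clears surfactant. Promoters of broadly used genes often lie in CpG islands, where NFY, SP/KLF and ETS factors commonly bind, and CTCF binds insulators and loop anchors.

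The DNA at the summits of 7 regions is shown first, because it carries the letters to which the motif counts below refer. Each is the plus strand of mm10, 201 bases centred on the summit of the region's strongest peak, read from GRCm38, with matches to the patterns searched in capitals. Tlr2 is the strongest distal region and holds no match, and Pja2 is the strongest promoter region, with 1 CTCF match and 1 NFY match. Lrrfip1 is the strongest distal region with a PU.1 match, and its window also holds a CEBP match. Rhov is the strongest distal region with a RUNX match, and its window also holds an AP-1 match. The last 3 are the strongest regions near the marker genes Siglecf, Itgax and Marco. The Itgax window holds 3 PU.1 matches and the Marco window 1 AP-1 match, while the Siglecf window holds none. The absence of a match says only that these letters are not in this window.
Tlr2 distal, chr3:83885224-83885424: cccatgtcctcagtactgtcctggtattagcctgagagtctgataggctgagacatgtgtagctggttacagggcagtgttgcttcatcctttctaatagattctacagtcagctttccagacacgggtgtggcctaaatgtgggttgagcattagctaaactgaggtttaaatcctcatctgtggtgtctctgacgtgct
Pja2 promoter, chr17:64332016-64332216: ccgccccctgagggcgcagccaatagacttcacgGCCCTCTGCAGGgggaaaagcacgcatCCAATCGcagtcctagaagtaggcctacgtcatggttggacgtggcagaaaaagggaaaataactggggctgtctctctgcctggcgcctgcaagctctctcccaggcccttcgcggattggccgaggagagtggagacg
Lrrfip1 intron, chr1:91080453-91080653: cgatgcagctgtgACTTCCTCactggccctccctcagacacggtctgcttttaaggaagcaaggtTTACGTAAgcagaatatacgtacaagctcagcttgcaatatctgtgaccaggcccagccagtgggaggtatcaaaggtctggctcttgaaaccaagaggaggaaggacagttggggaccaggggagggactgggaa
Rhov intergenic, chr2:119263020-119263220: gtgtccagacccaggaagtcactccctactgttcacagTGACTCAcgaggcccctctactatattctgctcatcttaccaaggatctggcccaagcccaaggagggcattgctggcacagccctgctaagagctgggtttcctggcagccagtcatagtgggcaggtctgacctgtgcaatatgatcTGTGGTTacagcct
Siglecf intron, chr7:43353239-43353439: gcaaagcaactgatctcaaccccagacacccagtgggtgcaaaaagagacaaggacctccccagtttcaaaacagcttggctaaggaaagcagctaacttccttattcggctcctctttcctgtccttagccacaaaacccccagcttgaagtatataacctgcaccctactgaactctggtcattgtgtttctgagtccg
Itgax exon, chr7:128133747-128133947: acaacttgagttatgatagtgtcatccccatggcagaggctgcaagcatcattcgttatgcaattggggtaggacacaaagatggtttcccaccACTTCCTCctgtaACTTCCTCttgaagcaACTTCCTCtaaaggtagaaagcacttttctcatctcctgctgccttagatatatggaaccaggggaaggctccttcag
Marco intergenic, chr1:120524269-120524469: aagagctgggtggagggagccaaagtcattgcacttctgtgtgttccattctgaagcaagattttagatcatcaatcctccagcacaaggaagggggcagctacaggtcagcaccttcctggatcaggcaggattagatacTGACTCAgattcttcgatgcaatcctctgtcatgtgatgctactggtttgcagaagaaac

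All 5 genes chosen as AM markers had an open promoter in every WT library, as did 55.8% of all autosomal protein-coding genes. A promoter region is one whose summit lay within 1 kb of a transcription start site annotated in GENCODE M21 for a gene that is protein-coding or long noncoding. Spi1, the master factor of the myeloid lineage, had its promoter region at a strength percentile of 94.0 ± 1.42 (SD, n = 4 libraries). Its −log10 q was 207 in WT1_2, 220 in WT1_3, 246 in WT3 and 228 in WT4. The 4 values lay close together. An intergenic region upstream of Spi1 (chr2:91082823-91083441) reached 93.0 ± 0.757, and 11 regions lay within 20 kb of the gene body. For all autosomal protein-coding genes the median was 3 such regions. Such counts, here and below, were not adjusted for gene length.

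Pparg, the nuclear receptor gene that defines AM development, had 17 regions within 20 kb. 3 of the 17 were promoter regions. The strongest, at an internal start site 60.9 kb downstream of the 5′ end (chr6:115421638-115422174), reached a percentile of 89.9 ± 1.56, with −log10 q of 151, 188, 182 and 168 in WT1_2, WT1_3, WT3 and WT4. The region at the 5′ end itself was weaker, at 73.4 ± 1.02, and its −log10 q ran from 74.5 to 81.6. Thus the internal start site was the more open of these Pparg promoters in each of the 4 libraries. An intronic region 71.7 kb from the 5′ end followed at 85.2 ± 1.91. By mean fold enrichment over local background this intronic region came first, at 19.3 against 15.2 at the internal start site.

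The surface markers Siglecf, Itgax and Marco each had their strongest region within 20 kb outside the promoter. Most genes of the AM surface and effector list described below were alike in this. Examples are Ctsk (promoter 87.6, intergenic region 94.7) and Cd2 (88.8 and 97.7). Mertk was the exception in that list, with its strongest region at the promoter (85.5). The lineage factors were mixed. Cebpa had its strongest region at the promoter (98.5), while Zeb2 had its promoter at 78.6 and its strongest region in an intron (98.6). Housekeeping genes were mixed as well: Rplp0 was strongest at the promoter (96.8), and Actb had 78.0 there and 99.3 in an intergenic region. The share over all genes was not counted. Siglecf, a sialic acid-binding lectin used to identify AMs, had a promoter region at 52.9 ± 8.02 and an intronic region 2.00 kb downstream at 91.9 ± 0.573. The −log10 q of the intronic region was 189, 209, 208 and 168 in WT1_2, WT1_3, WT3 and WT4, and that of the promoter was 28.9, 51.5, 39.6 and 24.3. The 2 sets of values did not overlap, but the intronic region had been picked as the strongest of 6 near Siglecf. Itgax, which encodes the integrin CD11c, had its promoter at 74.7 ± 2.67 and a stronger region over an exon 4.30 kb downstream (84.3 ± 3.37). This is the window with 3 PU.1 matches shown above. Marco, a scavenger receptor for particles and bacteria, had its promoter at 55.8 ± 8.68 and an intergenic region 19.3 kb upstream at 94.2 ± 1.36. In that upstream region the −log10 q was 206, 238, 274 and 201, against 43.4, 50.4, 45.5 and 22.6 at the promoter. By mean fold enrichment, other regions outside the promoter ranked first at these surface markers. The values were 20.3 at Siglecf (7.99 kb upstream), 23.3 at Itgax (19.1 kb upstream) and 20.2 at Marco (37.5 kb downstream). The regions that led by percentile had 16.9, 10.8 and 14.4.

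**Figure D1:**
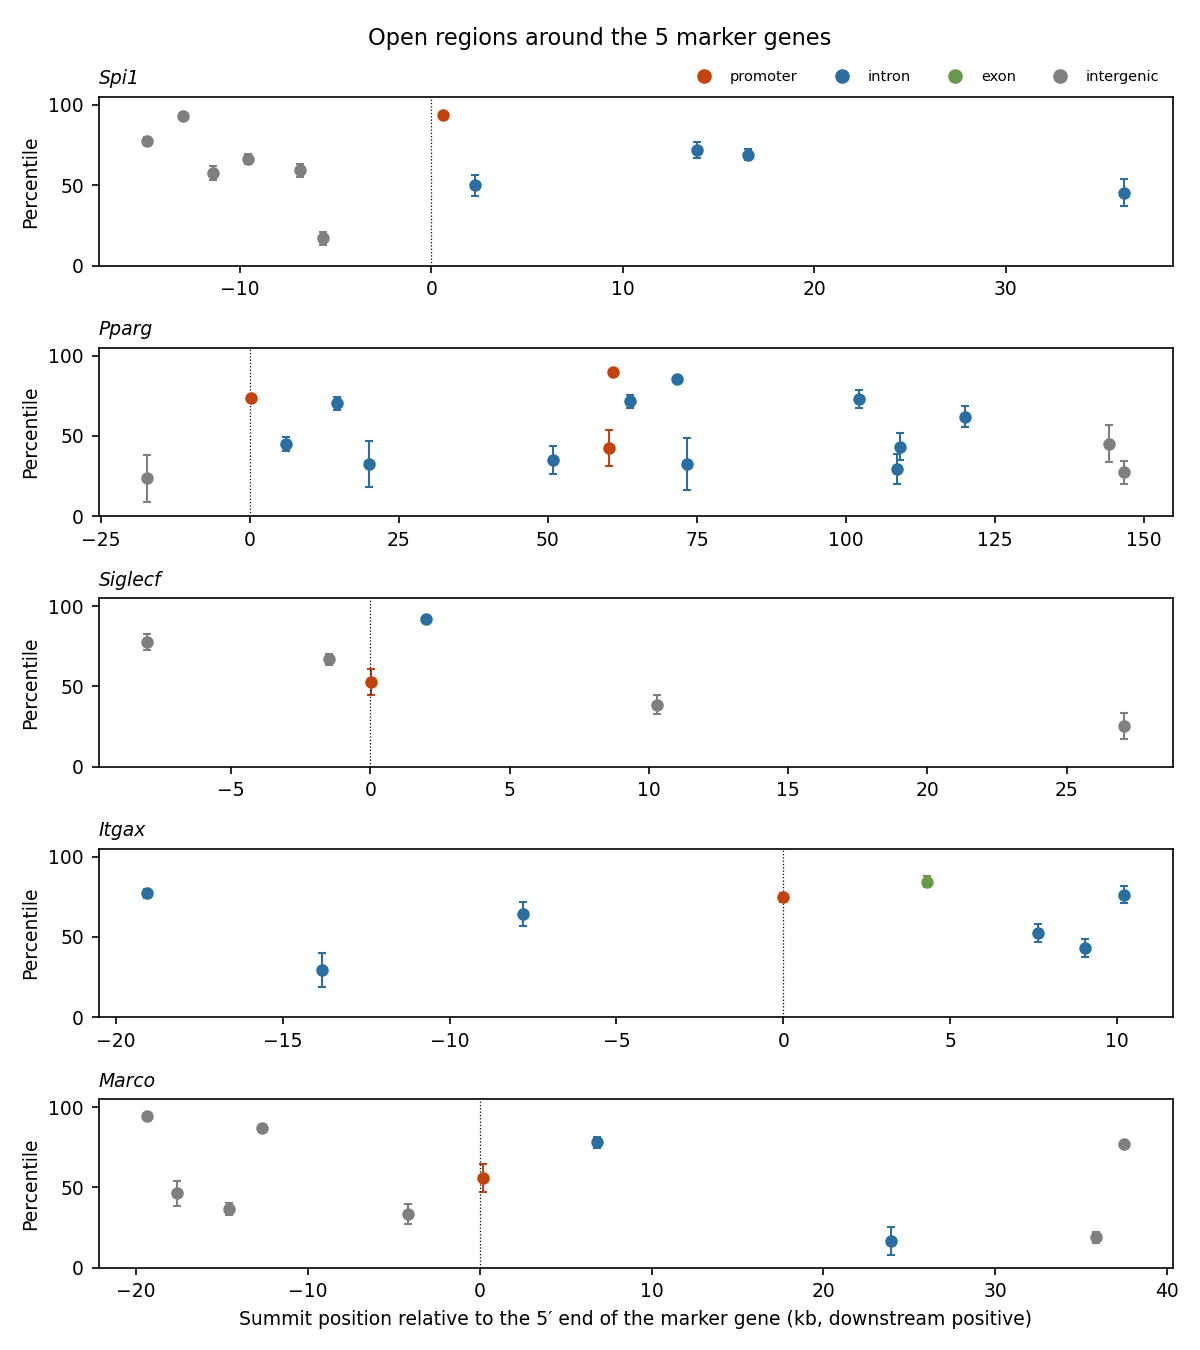
Each point is one region within 20 kb of a marker gene; the x axis is the distance of its summit from the 5′ end of the gene in kb and the y axis its mean strength percentile over the 4 WT libraries, with SD bars, coloured by class. By this percentile the strongest point is a promoter for Spi1 and Pparg and lies outside the promoter for Siglecf, Itgax and Marco.

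Across the landscape, 13659 regions (26.2%) were promoter regions and 38456 were distal. Of the distal regions, 21055 lay in introns (40.4% of all regions), 15604 were intergenic (29.9%) and 1797 were over exons (3.45%). The promoter share was 26.2% ± 0.0121 (SD, n = 4) when the summit of each library was used in turn. The distal summits lay a median of 16.1 kb from the nearest start site, and 2222 regions (4.26%) were over 100 kb away. Among distal regions the median percentile was 54.5 at 1 to 5 kb and 51.7 beyond 100 kb. The landscape covered 27.4 Mb in all. Chromosomes 19 and 11 held most regions per Mb (29.9 and 28.9), and chromosome 14 fewest (15.5).

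Promoter regions were wider than distal regions in every library. The median peak width was 518 bp at promoters and 365 bp at distal regions in WT1_2, 622 and 407 bp in WT1_3, 548 and 376 bp in WT3, and 495 and 348 bp in WT4. The difference was 172 ± 30.7 bp (SD, n = 4) and had the same sign in 4 of 4 libraries (exact sign-flip permutation test, two-sided, p = 0.125, the smallest p that 4 libraries allow). With so few libraries no such test can reach 0.05. WT1_3 had the widest peaks in both classes. As merged, the median region was 469 bp wide (651 bp at promoters, 432 bp at distal regions), with a range of 209 to 3640 bp.

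Promoter regions were also stronger. The median strength percentile was 75.1 at promoters and 53.3 at distal regions in WT1_2, 78.0 and 58.4 in WT1_3, 75.8 and 54.1 in WT3, and 74.3 and 50.3 in WT4. The difference was 21.7 ± 1.78 percentile points (exact sign-flip permutation test, two-sided, p = 0.125, n = 4). The fold enrichment over local background, a linear ratio given by the peak caller, was 14.0 ± 0.436 at promoters and 10.3 ± 0.318 at distal regions. The lowest promoter median of any library (13.4) was above the highest distal median (10.7).

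**Figure D2:**
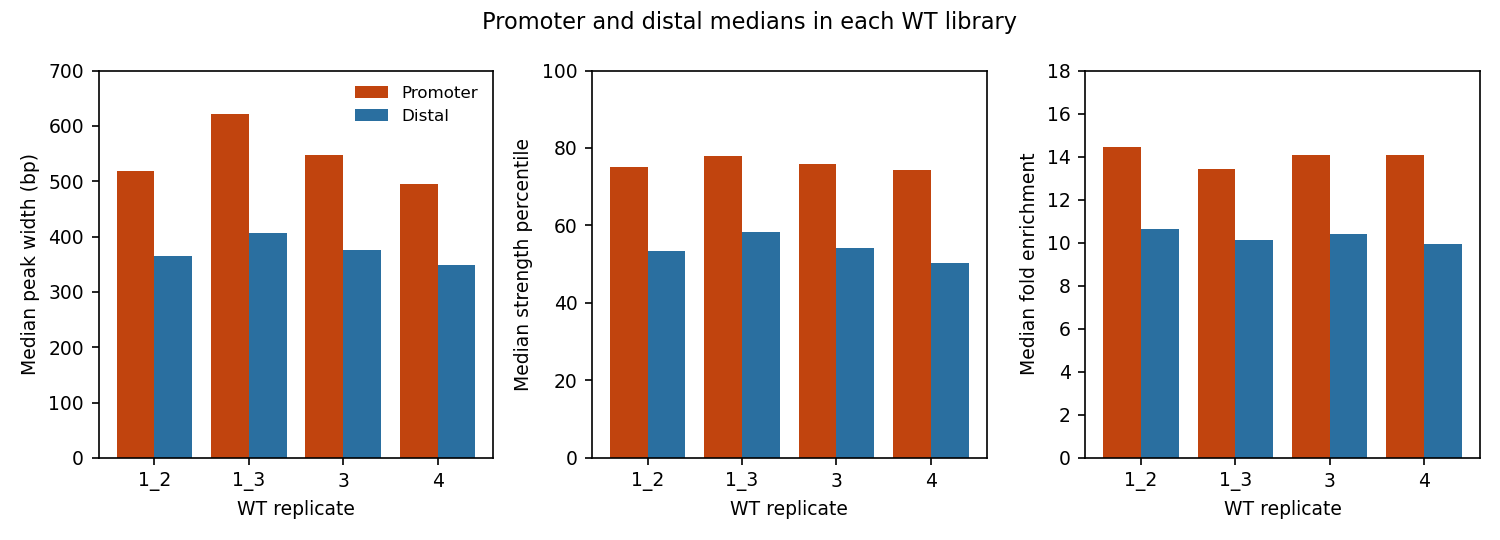
Bars give the median peak width in bp, the median strength percentile and the median fold enrichment of promoter and distal regions in each of the 4 WT libraries. The promoter bar is the taller of each pair in all 4 libraries and for all 3 measures.

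The promoter share rose along the strength ranking. It was 14.0% in the weakest decile of regions, 19.4% in the fifth decile and 56.9% in the strongest decile, and the share in the strongest decile (10% of the regions) of single libraries was 56.7% ± 0.582 (SD, n = 4). Of the 100 strongest regions, 89 were promoters. Width rose with strength within both classes, from 411 to 759 bp for promoters and from 333 to 597 bp for distal regions between the weakest and the strongest decile. Regions of 1000 bp or more were few (2071, 3.97%), and 80.2% of them were promoters. The order of regions was much alike between libraries: the rank correlation of percentiles over the 52115 regions ran from 0.949 to 0.960 over the 6 pairs of libraries, which share the merged regions and the genome's base composition. The percentile of a region varied over the libraries by a median SD of 9.01 in the weakest decile and 0.780 in the strongest. The percentile cannot exceed 100, which compresses its SD at the top: at Kbtbd8 the −log10 q ran from 629 to 778 with a percentile SD of 0.00777.

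**Figure D3:**
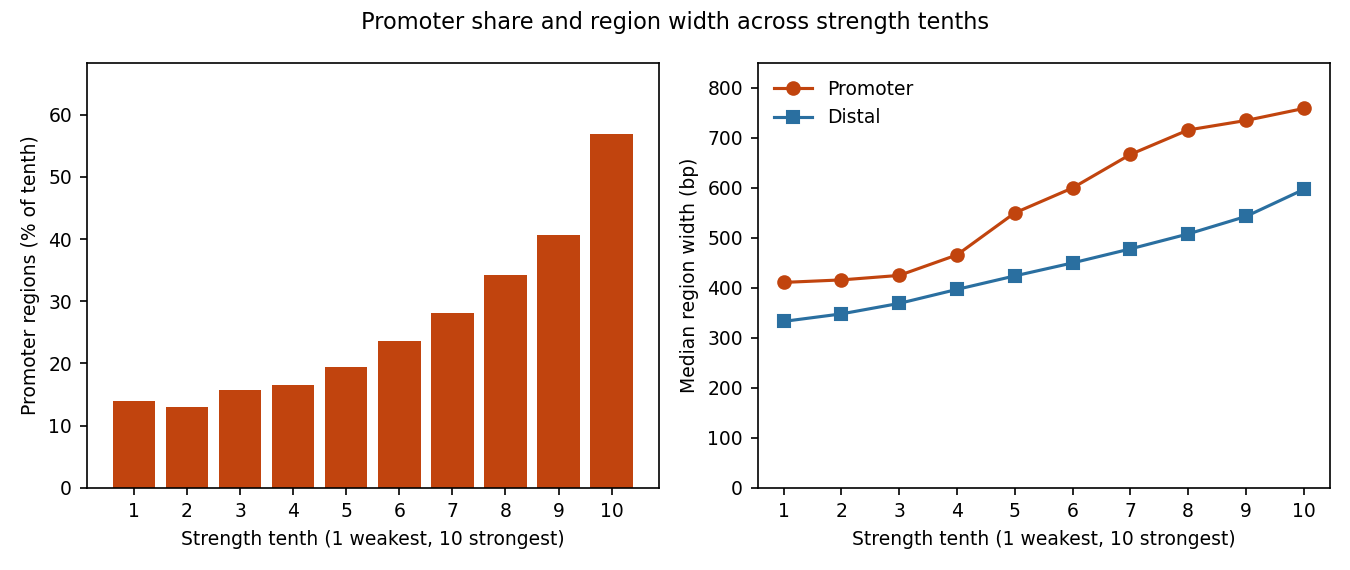
Regions are split into 10 equal groups by mean strength percentile (x axis, 1 weakest); the left panel shows the share of promoter regions in percent and the right panel the median region width in bp of promoter and distal regions. The promoter share climbs from 14.0% to 56.9%, and promoters are wider than distal regions in each decile.

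Regions that missed 1 or more lists were weak. The 6941 regions found in 3 of the 4 lists had a median percentile of 17.0 over the lists that held them and a width of 302 bp, against 58.9 and 469 bp for the 52115. The strongest region absent from any list reached only 54.2. Their promoter share was 12.6%.

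Pja2, an E3 ubiquitin ligase, had the strongest promoter region (chr17:64331527-64332503), with −log10 q of 815 in WT1_2, 929 in WT1_3, 835 in WT3 and 784 in WT4. It was the top peak of the list in 3 of the libraries. Kbtbd8, an adaptor of a cullin ubiquitin ligase, followed with 764, 778, 739 and 629. Hmgb2, a chromatin architectural protein, had 689, 765, 701 and 647. Others of the first 10 promoters were nearest to the noncoding gene Gm26787, to Xrcc4 (DNA end joining), Dnajc3 (a co-chaperone of the endoplasmic reticulum), Cggbp1, Dnpep (an aminopeptidase) and Zfyve21. Their mean fold enrichment ran from 20.8 at Dnpep to 30.6 at Xrcc4.

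The strongest distal regions were named by the gene with the nearest start site, which need not be the gene they act on. The first was 43.6 kb from Tlr2, the receptor for bacterial lipopeptides (chr3:83884928-83885619), and was the third strongest region of all. Its −log10 q was 695, 795, 687 and 633 in WT1_2, WT1_3, WT3 and WT4. The next distal region, in an intron 23.9 kb from the start site of Gm49768, came only at place 22. The other 8 were nearest to Gm37350, Trim29, Cdh26 (a cadherin), Zfp869, Dapk1 (a death-associated kinase), Gm15889, Gm17494 and Lrrfip1. At Gm37350 WT4 was the highest library, with 826 against 573, 640 and 635 in WT1_2, WT1_3 and WT3. No list of artefact-prone regions was applied here, so a repeat origin of this GC-rich window (64.7% G or C, 10.9% soft-masked as repeat) was not tested.

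The 5 widest regions lay at Gm26917 (3640 bp), Nr3c1 (2606 bp), Gm10382 (2167 bp), Alyref2 (2055 bp) and Cdc42ep4 (1933 bp). Nr3c1 encodes the glucocorticoid receptor. The Gm26917 region stood apart in its values: its percentile was 97.4 but its fold enrichment only 2.98, 2.76, 2.96 and 2.98 in WT1_2, WT1_3, WT3 and WT4. Regions of the strongest decile had a median fold of 22.0. None of the summit window at Gm26917 was soft-masked as repeat, but without a list of artefact-prone regions its origin was not tested either.

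Distal regions were shared unevenly between genes. The 38456 were nearest to 13063 genes, with a median of 2 a gene, and 548 genes had 10 or more. Pde4d, a cAMP phosphodiesterase, had most with 53 regions over 1576 kb, of which 48 were intronic and the strongest reached 96.1. Lpp (a focal adhesion protein) followed with 35, Hpcal1 (a neuronal calcium sensor family member) with 34, and Ankrd11 (a chromatin regulator) and Cmip (a signalling adaptor) with 32 each. Long genes offer more room for regions, and these counts were not adjusted for length. The 32 regions of Ankrd11 lay within only 136 kb.

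At promoters, the summit lay a median of 27 bp upstream of the start site, and 71.8% lay within 200 bp of it. CpG-rich promoters (observed over expected CpG above 0.6 in the 201-base window) were 9286 of 13659 (68.0%). Their median percentile was 79.9 and their width 713 bp, against 63.2 and 497 bp for the others. In 2382 promoter regions (17.4%) genes of both strands started within 1 kb of the summit, with a median percentile of 82.9 against 74.0 for the rest. Of 20807 autosomal protein-coding genes, 11619 (55.8%) had a promoter region. Of 9426 long noncoding genes, 2114 (22.4%) had one. Over the protein-coding genes with a promoter region, the median percentile of the strongest one was 82.1, the value beside which the lists below can be read. No promoter peak in any WT list was found for 39.3% of protein-coding genes.

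Of 15 transcription factors of the macrophage lineage, 14 had a promoter region, with a median percentile of 84.3. The strongest was Cebpa, a C/EBP factor of myeloid progenitors, at 98.5 ± 0.549. Mitf (97.0) and Maf (90.6) were also high. Fli1, an ETS factor, was the exception: no list had a peak within 1 kb of its annotated start sites. The nearest region (chr9:32540081-32540582, percentile 79.1) lay 1.35 kb from a Fli1 start site, outside the window. A stronger intronic region (chr9:32539214-32539610, 95.7 ± 0.276) lay 2.18 kb from a Fli1 start site. Within the Fli1 gene body, the promoter of the antisense gene Gm27201 had a region at 97.4 ± 0.834.

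All 15 factors listed as shaping AMs had a promoter region (median 81.0). Stat5a, which carries the GM-CSF signal, was first at 96.5 ± 1.16, Klf6 reached 96.2 and Smad2, of the TGFβ pathway, 94.8. Bhlhe40, a repressor linked to AM proliferation, reached 92.5 ± 0.282 with a region of 1505 bp. Rxra, one of the floxed genes, was the weakest of this list at 40.6 ± 2.70 and Rxrb stood at 67.4. Rxra had 18 regions within 20 kb, the strongest of them intronic at a percentile of 95.5. Of 12 receptors for niche signals, 10 had a promoter region (median 75.6), from Tgfbr1 at 98.9 ± 0.238 to Csf1r at 44.4 ± 9.39. Of the integrin chains that activate TGFβ, Itgav had a promoter region at 96.0 ± 0.772. Itgb6 had no promoter peak in any list and Itgb8 had one in 3 lists. For Csf1r, the receptor that maintains most tissue macrophages, an intronic region within 20 kb reached 94.7.

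Among 20 AM surface and effector genes, 16 had a promoter region, and the median percentile was 62.2, below that of all protein-coding genes. Mmp8, a collagenase, was first at 89.7 ± 2.14, Cd2 reached 88.8 and Ctsk 87.6. Ear2, an eosinophil-associated ribonuclease, was last at 27.7 ± 6.23. Reads of the near-identical Ear genes may be split or lost in mapping, so the Ear values are uncertain. Chil3, Krt79, Ear1 and Cd9 lacked a promoter region shared by all 4 lists, and Chil3 and Krt79 had no promoter peak in any list. Each of these 4 had regions nearby: the highest within 20 kb had a percentile of 95.1 for Chil3, 93.0 for Krt79, 91.6 for Ear1 and 96.4 for Cd9. Only 1 of the 16 promoters was CpG-rich. Over all promoter regions that were not CpG-rich, those of long noncoding genes included, the median percentile was 63.2. The 62.2 of this list takes only the strongest promoter region of each gene, so these medians are unlike measures. A link between CpG content and the median of this list was not tested.

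Genes of lipid and surfactant handling had a promoter region in 19 of 20 cases (median 77.9). Npc2 and Npc1, which move cholesterol out of lysosomes, stood at 99.9 ± 0.0798 and 98.2, and Lipa, the lysosomal acid lipase, at 98.0. Dgat2, of triglyceride synthesis, was the weakest at 37.8 ± 8.62. Scd1 had a promoter peak in 3 lists only. Abcg1, a cholesterol exporter, had a modest promoter (59.7) and 24 regions within 20 kb, the strongest at 95.8. All 18 lysosomal genes had a promoter region (median 70.2), from Lipa to Ctss at 33.6 ± 17.1. The percentile of Ctss was 10.3, 50, 41.5 and 32.5 in WT1_2, WT1_3, WT3 and WT4.

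In the pattern recognition list, 11 of 13 matched genes had a promoter region (median 83.0), led by the adaptor Ticam1 at 99.0 ± 0.328, with Tlr4 at 97.8. Myd88, the other main adaptor, was the weakest at 54.1 ± 4.38. Tlr1 had no promoter peak in any list, and Tlr6 had one in 3 lists. 1 further listed gene is annotated as a polymorphic pseudogene and was not matched. Of 16 phagocytic and scavenger receptors, 14 had a region (median 80.3), from Cd68 at 97.3 ± 0.576 to Msr1 at 14.4 ± 13.7. Stab1 had no promoter peak in any list, and Fcgr4 had one in 3 lists. Msr1 had an exonic region at 90.3 nearby. All 15 housekeeping genes had a region (median 87.8), from Rpl13a at 96.9 ± 1.37 to Eef2 at 36.2 ± 5.76.

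In the lists for other cells and tissues, 0 to 45.5% of the genes had a promoter region, beside 55.8% of all autosomal protein-coding genes, and the difference was not tested. The monocyte list lay nearest to that share. Macrophages of other tissues had 3 of 13 (Id3 at 89.7, Sall3 at 42.6 and Cx3cr1 at 38.3), and 8 of 13 had no promoter peak in any list, Timd4, Clec4f, Sall1, Spic and Tmem119 among them. Cx3cr1 had 20 regions within 20 kb of its annotated gene body, a count not adjusted for the length of the gene. For monocytes 5 of 11 had a region, from Itgam at 88.1 to C1qc at 19.4, and C1qb, Plac8 and F13a1 had no promoter peak. Dendritic cell genes had 3 of 9 (Zbtb46 at 75.2, Batf3 at 58.9 and Flt3 at 50.3), and Xcr1, Clec9a, Cd209a and Siglech had no promoter peak. Neutrophil genes had 3 of 10 (S100a8 at 88.8, Cxcr2 at 60.2 and Cebpe at 57.2), with no promoter peak at Ly6g, S100a9, Mpo, Elane and Ngp. Of the eosinophil genes Gata2 alone had one (24.3), 1 of 5, with no promoter peak at Epx, Prg2, Ccr3 and Il5ra. Eosinophils also carry Siglec-F.

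Of 15 lymphocyte genes, 2 had a promoter region, Ebf1 at 40.6 and Eomes at 19.5, and 11 had no promoter peak in any list, among them Cd3e, Cd4, Cd8a and Cd79a. Epithelial genes had 5 of 13, from Hopx at 70.0 to Epcam at 28.7, and Sftpc, Sftpb, Sftpa1 and Nkx2-1 had no promoter peak. Endothelial and stromal genes had 4 of 14, from Pecam1 at 85.3 to Col1a1 at 25.6, and Cdh5, Tek, Tie1 and Tcf21 had no promoter peak in any list. Of 15 genes of unrelated tissues, such as Alb, Myod1, Neurod1 and Ins2, none had a region in all 4 lists, and 3 had a promoter peak in 1 to 3 lists. The purity of the sort for mature AMs was not measured here. A weak region can reflect few remaining cells of another type or a low level of opening in AMs, and in bulk libraries the alternatives cannot be told apart. An open promoter was measured here, not expression.

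**Figure D4:**
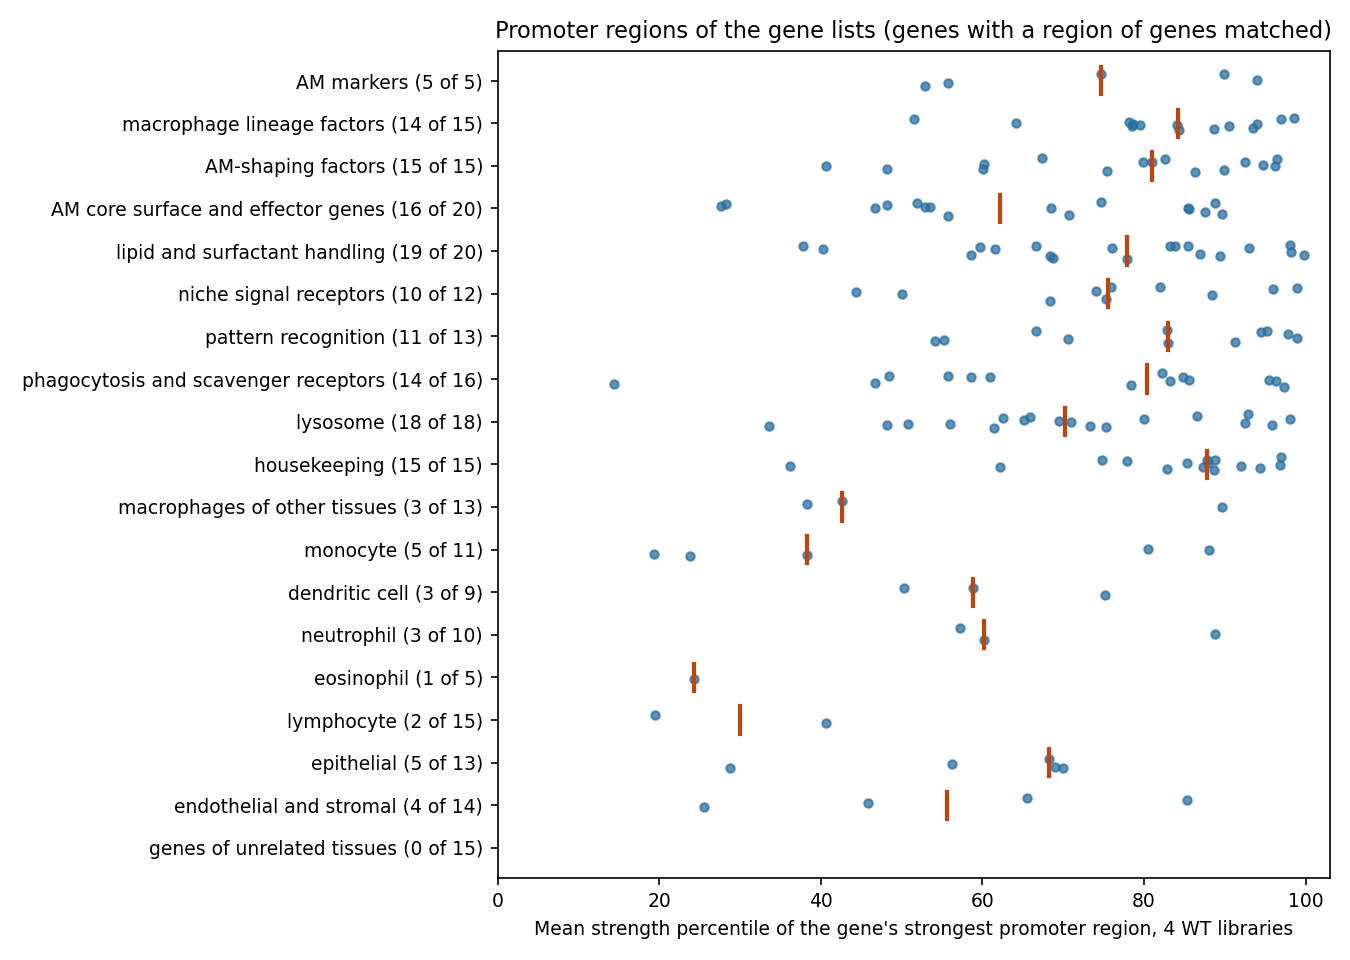
Each point is a gene with a promoter region, placed on the x axis by the mean strength percentile of its strongest promoter region over the 4 WT libraries; rows are gene lists, with the number of genes with a region of the number matched, and bars are list medians. In the first 10 lists 80 to 100% of the genes have a region, and in the lists for other cells and tissues at most 45.5%.

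Short DNA patterns were counted in the 201-base windows on either strand, beside the share in windows of the same length 1.5 kb downstream on the plus strand and the share at 39599 start sites of protein-coding genes. PU.1 (GAGGAAGT) was found in 5104 distal regions (13.3%), against 1.37% of the flanking windows, a ratio of 9.70. It was found in 4.55% of promoter regions, 1.14% of the promoter flanks and 2.14% of all start sites. RUNX (TGTGGTT) was in 11.1% of distal regions, with 5.35% in the distal flanks. At promoter regions RUNX was in 3.55%, below the 5.31% in the promoter flanks. AP-1 (TGACTCA) was in 11.6% of distal regions, with 3.62% in the distal flanks. At promoter regions AP-1 was in 4.14%, near the 3.65% in the promoter flanks. The CEBP letters searched (TTGCGCAA, TTGCGTAA or TTACGTAA) were rare, in 0.728% of distal regions against 0.130% of flanks, a ratio of 5.60. Each is an exact 8-base pattern with a CpG, and the median CpG ratio of distal regions was 0.221. CEBP sites with other letters were not counted, and shares cannot be compared between patterns of unlike length and letters. At least 1 of the PU.1, RUNX, AP-1 and CEBP patterns was in 33.1% of distal and 11.8% of promoter regions.

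The AP-1 share rose with the strength of distal regions, from 8.32% in the weakest decile to 17.7% in the strongest, and that of PU.1 from 11.1% to 15.3%. CTCF (by name, at most 1 mismatch) went the other way: it was in 16.0% of the weakest and 2.81% of the strongest distal decile. Distal regions with a CTCF match had a median percentile of 36.3 and a width of 359 bp, and those without a percentile of 55.1. DR1, the site of PPAR and RXR pairs (an AGGTCA pair spaced by 1 base, at most 2 mismatches), was in 5.07% of distal regions and 3.22% of their flanks.

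Promoter regions held other letters. SP/KLF (GGGGCGGG) was in 23.9% of promoter and 2.22% of distal regions. NFY (CCAATCA or CCAATGA or CCAATCG or CCAATGG) was in 19.5% and 7.80%, and ETS (CCGGAAGT) in 6.44% and 0.874%. At all 39599 start sites of protein-coding genes the shares were 17.5% for SP/KLF, 12.7% for NFY and 4.17% for ETS. NFY had the largest rise with strength in percentage points: it was in 7.01% of the weakest and 43.1% of the strongest decile of promoters, while ETS rose from 0.962% to 8.80%, a larger relative rise. Promoters with an NFY match had a median percentile of 91.1 against 71.3 without. The Pja2 window above holds such a match. The other patterns were less frequent: NRF1 (GCGCATGC) was in 2.99% of promoter regions, YY1 (AAGATGGC) in 3.22%, the E-box (TCACGTGA) in 1.08%, STAT5 (TTCCNGGAA) in 0.944% and RBPJ (CGTGGGAA) in 0.666%. At all start sites the shares were 2.44% for NRF1, 2.98% for YY1, 0.849% for the E-box, 0.818% for STAT5 and 0.472% for RBPJ. ISRE (a GAAA pair spaced by 2 bases) was in 3.03% of distal regions, close to the 2.71% in their flanks. Some patterns can overlap: ETS and STAT5 matches overlapped in 23 regions, and SP/KLF and CTCF matches in 37. A match is a description of the letters and does not show that a factor was bound.

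**Figure D5:**
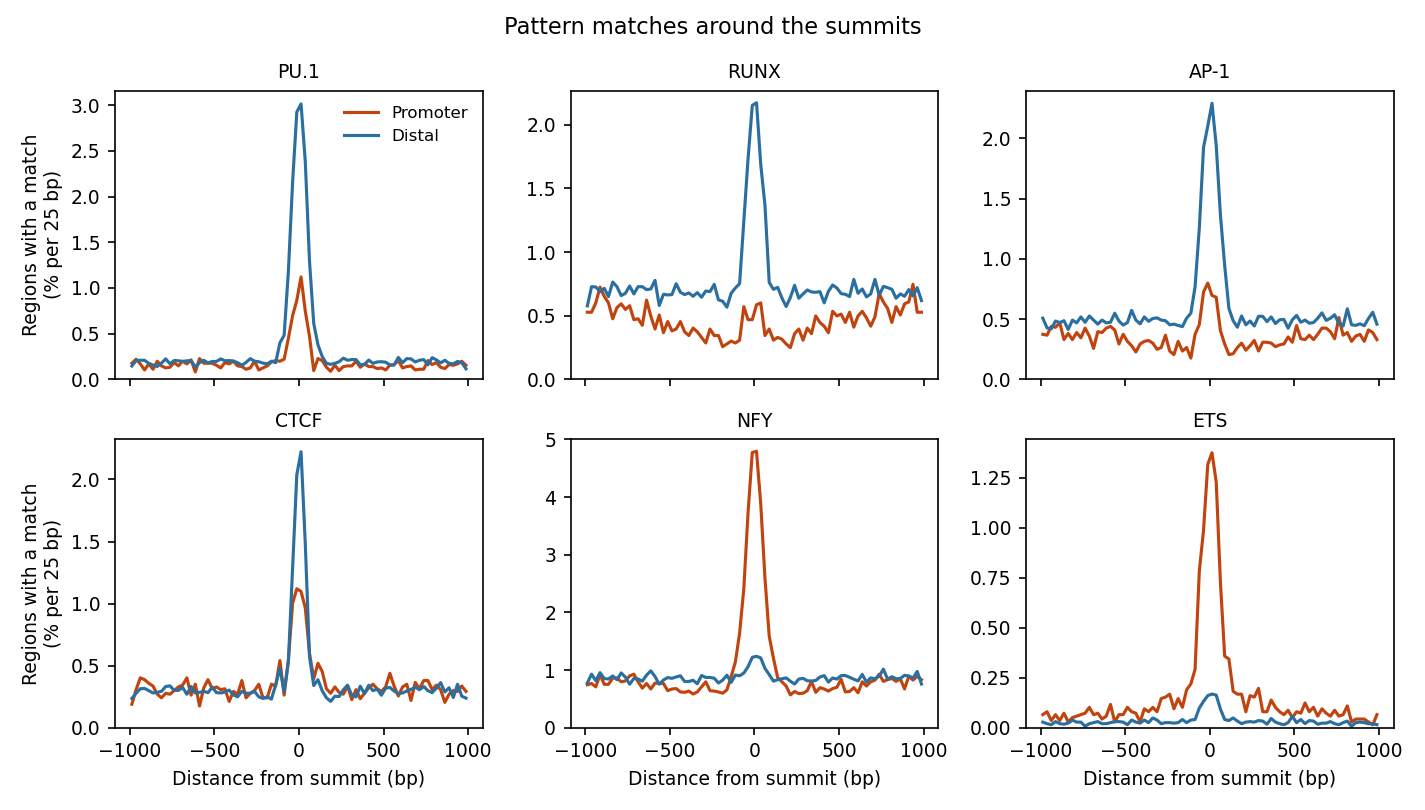
The share of promoter and distal regions with a pattern match (y axis, percent per 25-bp bin) is plotted against the distance from the summit in bp (x axis) for 6 patterns. PU.1, RUNX, AP-1 and CTCF peak at distal summits, with PU.1 at 3.01% per bin, and NFY and ETS at promoter summits, with NFY at 4.80% per bin.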

How the data were processed

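Peak lists of the 4 WT libraries were used. In the methods, paired-end reads were cleaned with Cutadapt, mapped with Bowtie2 on mm10, stripped of duplicates and filtered with SAMtools to well-mapped proper pairs; the authors then called peaks with MACS3 (q-value 0.05), library by library. The deposited fold enrichment is the authors' linear ratio of summit signal to local background. The deposited −log10 q-values were ranked within each list. A deeper library reaches the threshold with less enrichment, and the lists hold no read depth, so no counting interval was given.

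Overlapping autosomal peaks (1 bp or more in common) were joined, keeping only regions represented in all 4 lists; 1390 to 1773 X-linked peaks per library were left out. The summit is that of the strongest peak. Gene models were GENCODE M21 basic and sequence was GRCm38; no peak exceeded its chromosomes. Python 3.11.15, pandas 2.3.3 and pysam 0.24.0 were used, and merging, ranking, motif search and the exact sign-flip test were tested on simulated data.

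The regions, gene lists and patterns were chosen with earlier results of these data known. Named genes were the 5 markers, the 10 strongest promoter and 10 strongest distal regions, the 5 genes nearest to most distal regions, and the strongest, weakest and absent members of each list. Some of these are not reported here. Other genes named from the lists, the 5 widest regions, Gm27201 and the windows shown for Rhov and Lrrfip1 were chosen after their values were seen. Alternatives covered the overlap, the q-value, list length, each library left out, WT1_2 and WT1_3 as 1 sample, the promoter window, the start sites, ranking by fold and the motif window.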

Additional observations from a re-analysis of the deposited data

Results flagged for a closer look

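Of 73 values checked over the 4 WT libraries, 2 had a library far from the other 3, where chance alone flags about 1 in 20. The Csf1r promoter region had a percentile of 30.4 in WT1_2 against 47.7 to 50.5 in the other libraries, a gap of 0.857 of the whole range. The Rpl13a promoter region had 94.9 in WT1_2 against 97.5 to 97.7, a gap of 0.915 of the range. Both gaps exceed the 95% critical value of Dixon's test for 4 samples.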

How the results depend on the processing

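No alternative reversed the sign of a promoter minus distal difference, the only main results with a direction. Of 64 recomputed values of the main results, 50 stayed close to the reported ones. Close meant within 1 SD between libraries, within 1.5 times for the number of regions, or within the 95% binomial interval for the motif share. For the promoter share, the SD was that of the share among all autosomal peaks of each list (1.02 percentage points). It was not the 0.0121 given above. For the median region width, it was the SD of the median peak width of each library (29.4 bp). The exact test cannot reach 0.05 here, so its p was not used to judge the recomputed values. Leaving out single libraries gave 53004 to 55760 regions, a median width of 431 to 456 bp (431 bp without WT1_3), a promoter share of 25.3 to 26.4% and a promoter share of the strongest decile of 55.9 to 56.8% (55.9% without WT4). With 3 libraries the exact test cannot go below p = 0.25. The promoter share was 22.4% with a promoter window of 500 bp, 32.4% with 2500 bp and 24.1% with protein-coding start sites only; in the strongest decile it was 54.5%, 59.7% and 54.7%. The promoter minus distal difference in strength was 24.8 percentile points with 500 bp and 18.03 with 2500 bp, and that in width was 126.5 bp with 2500 bp. Ranking by fold enrichment lowered the promoter share of the strongest decile to 43.8% and the strength difference to 15.3 percentile points; the cause was not tested. A motif window of 50 bp lowered the share of regions with any pattern from 55.1% to 40.3%, and by construction holds fewer letters. No paired analysis was possible because no KO library entered a comparison, so no compared groups share replicate numbers. Some WT and KO libraries do carry the same replicate number in their labels. Pairing here means WT with KO: the promoter minus distal differences were taken within each WT library. The lists give no read depth, so a region absent from a list is not shown to be closed.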
